A study of Thermothelomyces thermophilus ATCC 42464 with 4 samples.

Results

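Lytic polysaccharide monooxygenases (LPMOs) of family AA9, listed as glycoside hydrolase family 61 in older annotation, are secreted copper enzymes that cut chains within crystalline cellulose by oxidation. Cellobiose dehydrogenase is a secreted flavin and heme enzyme that oxidizes cellobiose and can hand the electrons to LPMOs. The ends and nicks that LPMOs leave give cellobiohydrolases and endoglucanases further points of attack, so fungi that grow on cellulose usually secrete both sets of enzymes. Transcripts of 7 such genes were followed in *M. thermophila*, a thermophilic filamentous fungus, out of 8716 genes with a value. They were taken by identifier, 6 AA9 genes (*Mycth_112089*, *Mycth_110651*, *Mycth_100518*, *Mycth_80312*, *Mycth_111088* and *Mycth_92668*) and the cellobiose dehydrogenase gene *Mycth_81925*.

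The RNA came from 2 strains on the ATCC 42464 background, one with the genotype WT (MtWT) and one labelled as an MtTrh-1 deletion (ΔMtTrh-1), with 2 libraries each. Mycelia of both were grown in 2% glucose at 45°C for 16 h, washed, and held for 4 h in medium whose carbon source was 2% Avicel, a crystalline cellulose. The title of the series ties MtTrh-1 to Hac-1 and Cbh-1, and it was therefore read as *Mttrc-1* (*Mycth_90344*), a zinc finger gene in which the study placed a neomycin resistance cassette. That reading was not tested, and the labels do not say how many transformants the libraries stand for. *Mycth_90344* itself stood at 215 and 223 FPKM (fragment counts scaled to gene length and to the mapped fragments of the library) in the libraries labelled ΔMtTrh-1 and at 13.3 and 14.5 FPKM in MtWT. This is a log2 fold change of 3.89 (adjusted p = 5.11e-11, limma) against what the label would give, so every direction below is that of the labels, and "the libraries labelled ΔMtTrh-1" is written throughout. All FPKM of a library summed to between 725984 and 741923, and their read depth is unknown. Whether both libraries of a strain stem from separate cultures is not in the labels. The p-values then measure spread among these 4 libraries only, and that spread may be technical. In RNA from whole mycelium, fewer expressing hyphae and less transcript per hypha cannot be told apart.

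Each of the 7 genes had a lower level in the libraries labelled ΔMtTrh-1. Log2 fold changes ranged from −3.85 to −1.53, with a median of −2.21 for the 7 genes and of 0.03 for the 7525 genes tested. The study's cut-offs were used to call a gene, namely a log2 fold change below −1 or above 1 with an adjusted p under 0.05. The study applied them to a test on read counts (DESeq2), and here they were applied to limma on log2(FPKM + 1). Under this rule 7 of 7 genes were called lower, where 4.96% of all genes tested were called lower and 5.3% higher. Among the 159 genes whose mean over the 4 libraries reached 1000 FPKM, 8.81% were called lower. That group holds *Mycth_100518*, *Mycth_80312* and *Mycth_111088* only through their MtWT levels. It also holds *Mycth_112089* and *Mycth_110651*, but not *Mycth_81925* or *Mycth_92668*, so it is not a separate background for the members. Both libraries labelled ΔMtTrh-1 lay below both MtWT libraries for 7 of 7 members, and also for 39.0% of all genes tested and 59.7% of those reaching 1000 FPKM. The study names most of these genes from its own transcriptomes of MtWT and its *Mttrc-1* deletion, which it cites as a separate data set processed with other tools. Whether those strains are the ones sequenced here was not tested, and the direction of the members is not independent evidence.

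The AA9 gene *Mycth_112089*, described as family 61A, had the highest level of the 7 in MtWT, with 6127 and 5995 FPKM. These values placed it at rank 8 and rank 9 among all genes of the 2 libraries. In the libraries labelled ΔMtTrh-1 it stood at 1154 and 1175 FPKM, at ranks 120 and 122. Both values lay far below both MtWT values, with a coefficient of variation of 1.25% and 1.54% between the libraries of a strain. The log2 fold change was −2.38 (SE, the standard error, 0.05, adjusted p = 8.13e-10, limma), or 5.2-fold lower. As the most abundant member, *Mycth_112089* made up 34.3% of the whole fall in FPKM of the 7 genes.

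*Mycth_110651*, the AA9 gene described as family 61G, was nearly as abundant in MtWT and fell least. It was at 5123 and 5352 FPKM in MtWT, against 1827 and 1803 FPKM in the libraries labelled ΔMtTrh-1. The groups did not overlap, and the log2 fold change was −1.53 (SE 0.06, adjusted p = 2.04e-08, limma), a 2.88-fold lower level. There were 172 genes of the 7525 with a larger fall. Of the 7 genes it alone kept a rank near the top in the libraries labelled ΔMtTrh-1, at 60 and 56, from 11 and 10 in MtWT.

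The largest fall belonged to *Mycth_80312*, an AA9 gene that the study also used in RT-qPCR. In MtWT it was measured at 1904 and 2033 FPKM. In the libraries labelled ΔMtTrh-1 it was at 139 and 132 FPKM, so the strains were separated by more than an order of magnitude. The log2 fold change was −3.85 (SE 0.05, adjusted p = 3.56e-11, limma), corresponding to 14.4-fold. Among all genes tested, 12 fell further. Its rank went from 61 and 52 in MtWT to 778 and 807.

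*Mycth_100518*, described as family 61W, started from the same level as *Mycth_80312* and lost much less of it. It stood at 2010 and 2086 FPKM in MtWT and at 440 and 443 FPKM in those labelled ΔMtTrh-1. These are non-overlapping values with a log2 fold change of −2.21 (SE 0.05, adjusted p = 7.38e-10, limma). The ratio of *Mycth_100518* to *Mycth_80312* was 1.06 and 1.03 in MtWT. It was 3.17 and 3.36 in the libraries labelled ΔMtTrh-1, so a pair of AA9 transcripts that were level in MtWT stood apart there.

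*Mycth_111088* is described as family 61I with cellobiose dehydrogenase in brackets. It is treated here as an AA9 gene, since the family name is that of LPMOs, and its protein was not examined. It had 1724 and 2033 FPKM in MtWT, the widest spread of the 7 genes between libraries of a strain, with a coefficient of variation of 11.6%. In the libraries labelled ΔMtTrh-1 it had 493 and 507 FPKM. The difference was larger than this spread, with a log2 fold change of −1.90 (SE 0.07, adjusted p = 2.92e-08, limma).

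*Mycth_92668* had by far the lowest level of the 6 AA9 genes in MtWT, at 94.0 and 90.9 FPKM, or ranks 1137 and 1163 among all genes. The libraries labelled ΔMtTrh-1 had 19.6 and 19.4 FPKM. Its log2 fold change of −2.19 (SE 0.05, adjusted p = 1.41e-09, limma) was close to that of *Mycth_100518*, −2.21, which was far more abundant. Of the fall in the 7-gene sum, *Mycth_92668* accounted for 0.511%.

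The cellobiose dehydrogenase gene *Mycth_81925* showed the second largest fall. It was at 1298 and 1270 FPKM in MtWT and at 221 and 230 FPKM in those labelled ΔMtTrh-1. The libraries of each strain were close together and the strains did not overlap. The log2 fold change was −2.51 (SE 0.05, adjusted p = 2.89e-10, limma), or 5.68-fold lower, and 40 of the genes tested fell further.

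**Figure D1:**
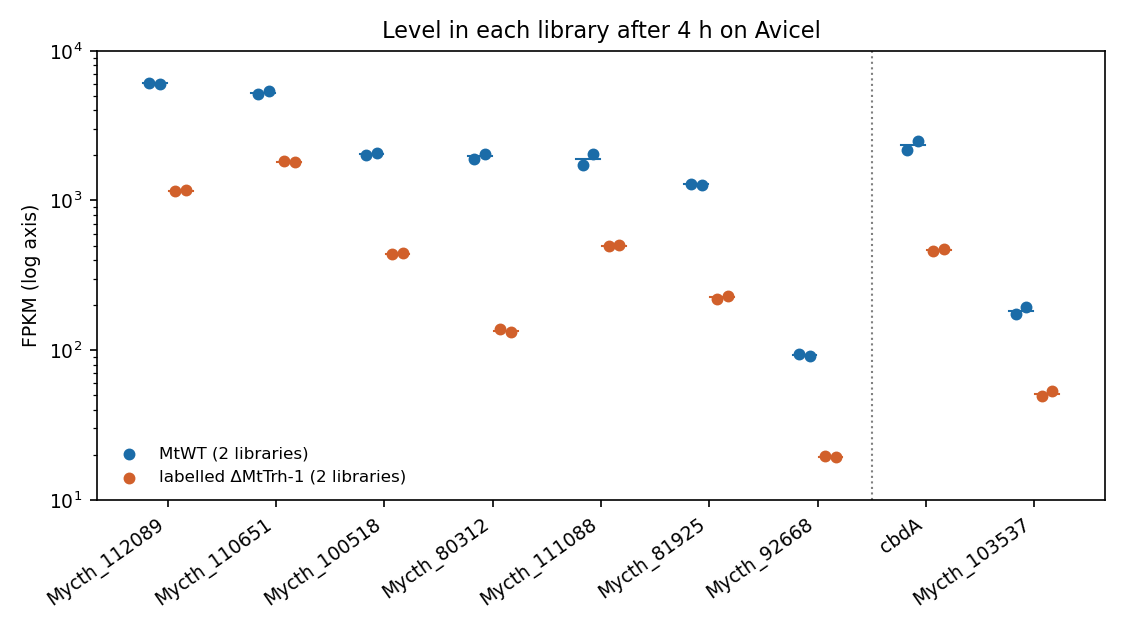
Level in FPKM, on a log axis, of the 7 genes and, right of the dotted line, of the other described cellobiose dehydrogenase and AA9 genes cbdA and Mycth_103537. Points are libraries (2 per strain) and short lines their means. For each gene both libraries labelled ΔMtTrh-1 lie below both MtWT libraries, as for 39.0% of all genes tested, with the widest gap at Mycth_80312 (139 and 132 against 1904 and 2033 FPKM).

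The order of abundance differed between the strains. In MtWT *Mycth_112089* came first and *Mycth_110651* second, followed by *Mycth_100518*, *Mycth_80312* and *Mycth_111088*. The values of these last genes overlapped across the MtWT libraries, so they are not ranked firmly. Each MtWT library gave them in this order, but *Mycth_80312* and *Mycth_111088* were level in MtWT replicate 2, both at 2033 FPKM. *Mycth_81925* and then *Mycth_92668* closed the order. In the libraries labelled ΔMtTrh-1 *Mycth_110651* was first and *Mycth_112089* second. *Mycth_111088*, *Mycth_100518*, *Mycth_81925*, *Mycth_80312* and *Mycth_92668* followed in that order with no overlap between neighbours. *Mycth_80312* thus stood below the cellobiose dehydrogenase gene there, and above it in MtWT. The ratio of *Mycth_112089* to *Mycth_110651* was 1.20 and 1.12 in the MtWT libraries and 0.632 and 0.651 in the others.

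The 7 genes fell by unequal factors. The 95% intervals of the log2 fold changes were −3.98 to −3.73 for *Mycth_80312* and −1.66 to −1.40 for *Mycth_110651*, and neither overlapped that of any other member. Between these extremes, the intervals of *Mycth_81925* and *Mycth_112089* overlapped, as did those of *Mycth_112089* with *Mycth_100518* and with *Mycth_92668*, of *Mycth_100518* with *Mycth_92668*, and of *Mycth_92668* with *Mycth_111088*. In all, 16 of the 21 pairs of members had intervals that did not overlap. Intervals were not compared over all gene pairs, so this count has no background beside it. The ratio of one member to the other within a library, which does not depend on how the library was scaled, separated the strains in 20 of the 21 pairs. So did 90.7% of all pairs among the 1957 genes averaging 50 FPKM or more and above 0 in every library, so this count is near the background. The exception among the members was *Mycth_100518* to *Mycth_92668*. The size of the fall did not follow the level in MtWT. The pair with the highest levels had log2 fold changes of −2.38 and −1.53, and the gene with the lowest level had −2.19.

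**Figure D2:**
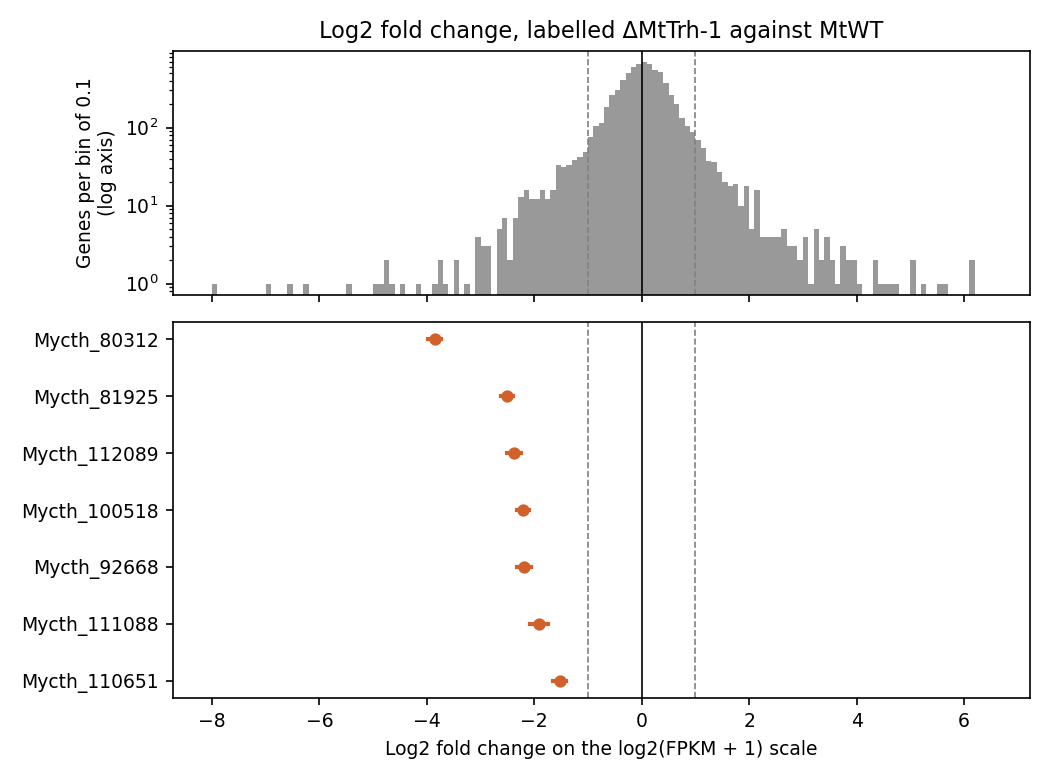
Log2 fold change of the libraries labelled ΔMtTrh-1 against MtWT on the log2(FPKM + 1) scale. The upper panel counts the 7525 genes tested in bins of 0.1 on a log axis, and the lower panel gives the 7 members with 95% intervals from limma. Dashed lines mark the fold threshold of 1 on either side of 0. All 7 intervals lie left of −1, and the estimates run from −3.85 for Mycth_80312 to −1.53 for Mycth_110651.

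As a sum, the 7 genes reached 18280 and 18860 FPKM in MtWT and 4293 and 4309 FPKM in the libraries labelled ΔMtTrh-1. The mean sum was 4.32-fold lower, a log2 ratio of −2.11. As a share of all FPKM in a library, the sum was 2.51% ± 0.0674 (SD, n = 2) in MtWT and 0.591% ± 0.00346 in the libraries labelled ΔMtTrh-1. For 2 libraries against 2, an exact two-sided permutation test cannot go below p = 0.33, so no p is given for sums and ratios. The 6 AA9 genes alone summed to 17286 ± 431 FPKM and 4075 ± 4.66 FPKM, a log2 ratio of −2.08. Without *Mycth_112089*, the other AA9 genes summed to 11225 ± 524 FPKM in MtWT and 2911 ± 9.86 FPKM, with a log2 ratio of −1.95. The fall of the sum therefore did not rest on its most abundant gene.

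**Figure D3:**
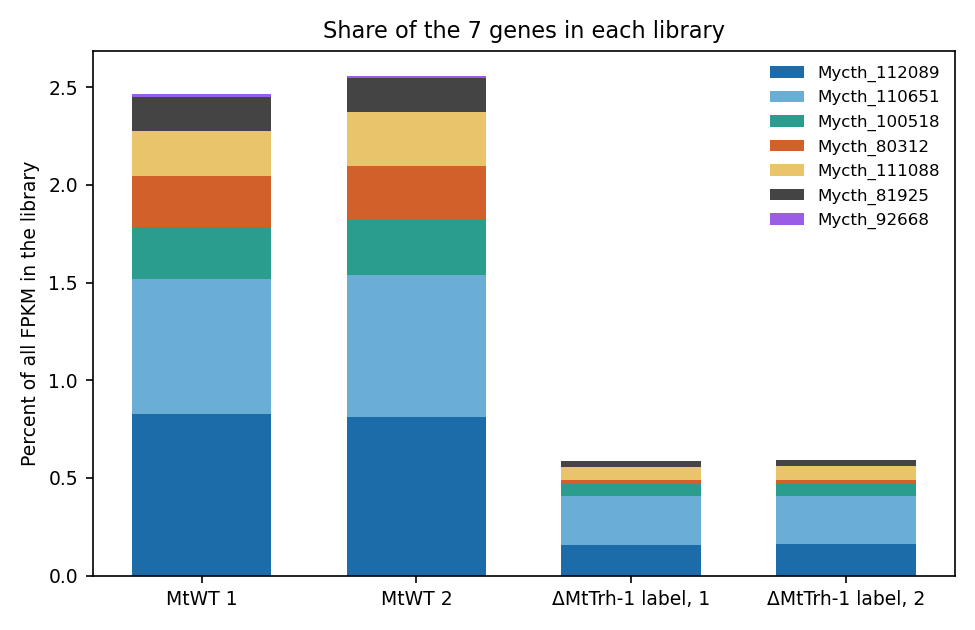
Share of the 7 genes in all FPKM of each library, in percent, stacked by gene. The bars reach 2.46% and 2.56% in the MtWT libraries and 0.589% and 0.594% in the libraries labelled ΔMtTrh-1, and the 2 lowest blocks in each bar are Mycth_112089 and Mycth_110651.

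The make-up of the sum changed along with its size. *Mycth_110651* took 28.0% and 28.4% of it in MtWT and 42.5% and 41.9% in the libraries labelled ΔMtTrh-1. *Mycth_112089* took 33.5% and 31.8% in MtWT and 26.9% and 27.3% in the others. For *Mycth_80312* the share went from 10.4% and 10.8% to 3.24% and 3.06%. *Mycth_111088* took a slightly larger share in the libraries labelled ΔMtTrh-1, at 11.5% and 11.8% against 9.43% and 10.8%, since it fell by less than the sum. The cellobiose dehydrogenase gene *Mycth_81925* took 7.10% and 6.73% in MtWT and 5.14% and 5.34% in the libraries labelled ΔMtTrh-1. *Mycth_100518* was little changed, at 11.0% and 11.1% against 10.2% and 10.3%.

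**Figure D4:**
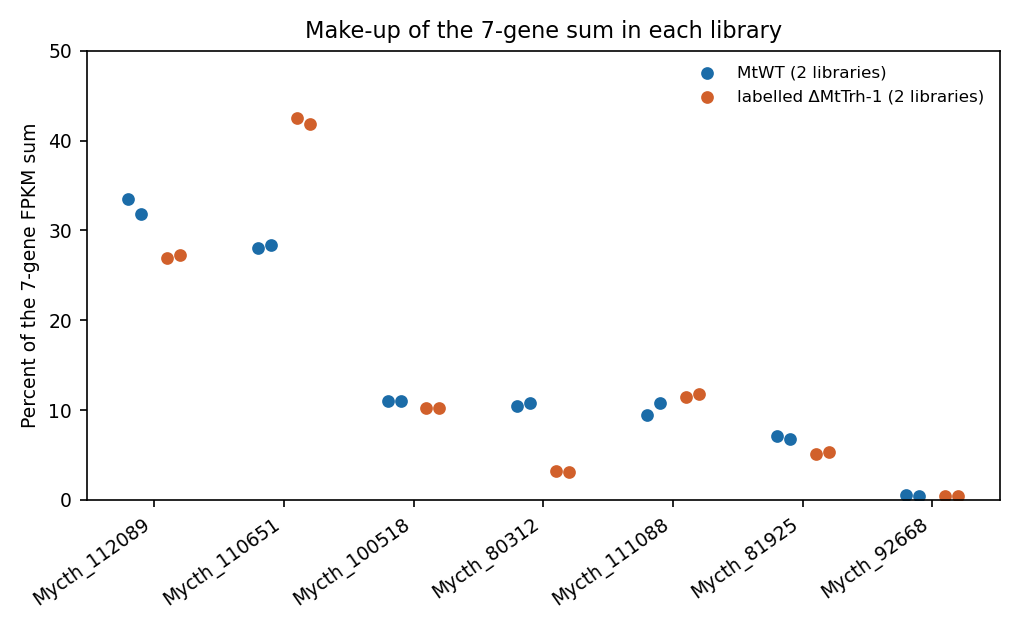
Percent of the 7-gene FPKM sum taken by each gene, with 1 point per library. The largest shifts are those of Mycth_110651, from 28.0% and 28.4% in MtWT to 42.5% and 41.9% in the libraries labelled ΔMtTrh-1, and of Mycth_80312, from 10.4% and 10.8% to 3.24% and 3.06%.

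Other genes of both families were taken by the words of their product descriptions, which were at hand for 1492 genes of the file. The list of relatives is therefore partial. It held 1 further AA9 gene and 3 further genes whose descriptions name cellobiose dehydrogenase. The AA9 gene *Mycth_103537*, described as family 61L, was at 174 and 194 FPKM in MtWT and at 49.3 and 53.2 FPKM in those labelled ΔMtTrh-1. It was called lower, with a log2 fold change of −1.82 (adjusted p = 1.69e-08, limma), as were 4.96% of all genes tested. The other 6 AA9 genes described or named are the members already counted, so only this gene is added to that count.

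A further cellobiose dehydrogenase gene was listed under its symbol, *cbdA* (*Mycth_111388*), and exceeded *Mycth_81925* in every library. *cbdA* was at 2177 and 2509 FPKM in MtWT and at 461 and 475 FPKM in those labelled ΔMtTrh-1. These values did not overlap, and the log2 fold change was −2.32 (SE 0.07, adjusted p = 4.43e-09, limma). Its 95% interval, −2.47 to −2.16, overlapped that of *Mycth_81925*, −2.62 to −2.39. The ratio of *cbdA* to *Mycth_81925* was 1.68 and 1.98 in MtWT and 2.09 and 2.06 in the libraries labelled ΔMtTrh-1. Both dehydrogenase genes together had 3475 and 3779 FPKM in MtWT and 682 and 705 FPKM in the others. The remaining 2, *Mycth_2065691* and *Mycth_2119721*, are described by a cytochrome domain of cellobiose dehydrogenase. *Mycth_2065691* was listed at 0 in all 4 libraries and *Mycth_2119721* had at most 0.65 FPKM, and neither was tested.

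Relative to the 2 cellobiohydrolase genes *Mycth_109566* and *Mycth_66729*, whose products release cellobiose from chain ends, the 7 genes were lower in the libraries labelled ΔMtTrh-1. Their sum divided by that of the cellobiohydrolases was 0.945 and 0.848 in MtWT, against 0.632 and 0.668. These ratios did not overlap, as for 90.7% of the gene pairs counted above. Both cellobiohydrolase genes were themselves called lower, *Mycth_109566* with a log2 fold change of −1.81 and *Mycth_66729* with −1.31 (adjusted p = 2.27e-07 and 6.38e-08, limma). The endoglucanase gene *Mycth_86753*, whose product cuts within cellulose chains by hydrolysis, had −1.39. Genes described as endoglucanase differed, with −1.85 for *Mycth_111372* and −0.64 for *Mycth_109444*, so *Mycth_86753* does not stand for them all. The sum of the 7 genes over *Mycth_86753* was 2.49 and 2.46 in MtWT and 1.49 and 1.50 in the libraries labelled ΔMtTrh-1. The log2 fold change of *Mycth_110651*, −1.53, lay between those of *Mycth_109566* and *Mycth_86753*, so relative to *Mycth_109566* this member taken alone was not lower.

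The summed AA9 transcripts relative to those of cellobiose dehydrogenase moved the other way. The 6 AA9 genes summed to 13.1 and 13.9 times *Mycth_81925* in MtWT and to 18.5 and 17.7 times in the libraries labelled ΔMtTrh-1. With *cbdA* added to the denominator the ratio was 4.89 and 4.66 in MtWT, against 5.97 and 5.79. In both forms the strains did not overlap, as for 90.7% of the gene pairs counted above. The shift was small beside the fall of either sum. *Mycth_80312* fell more than either dehydrogenase gene, so the shift is not shared by every AA9 gene. For *Mycth_112089* the log2 fold change of −2.38 lay between those of *cbdA*, −2.32, and *Mycth_81925*, −2.51. Its interval overlapped both of theirs. *Mycth_100518* (−2.21) and *Mycth_92668* (−2.19) fell less than both by estimate, but their intervals overlapped that of *cbdA*. Only *Mycth_111088* (−1.90) and *Mycth_110651* had intervals above those of both dehydrogenase genes. *Mycth_110651*, which fell least (log2 fold change −1.53), took 28.0% and 28.4% of the 7-gene sum in MtWT. Its share in the libraries labelled ΔMtTrh-1 was 42.5% and 41.9%. The ratios were not taken without this gene, so whether the shift rests on it was not tested. The shift is therefore one of the sums and not of the AA9 genes in general.

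**Figure D5:**
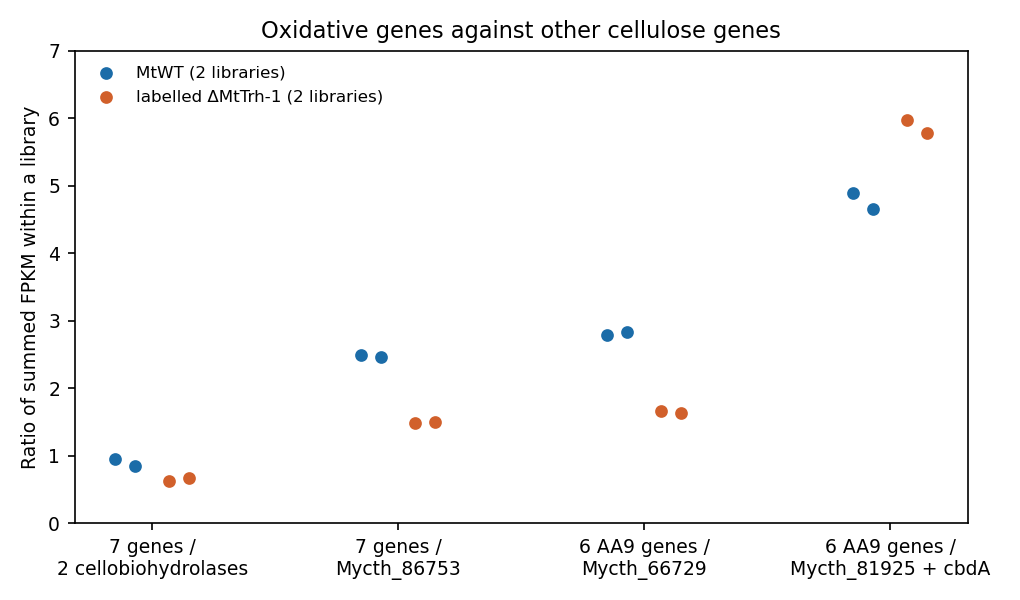
Ratios of summed FPKM within a library, 1 point per library. The 7 genes over the 2 cellobiohydrolases lie at 0.945 and 0.848 in MtWT and at 0.632 and 0.668 in the libraries labelled ΔMtTrh-1, the 7 genes over Mycth_86753 and the 6 AA9 genes over Mycth_66729 are also lower there, and the AA9 genes over both cellobiose dehydrogenase genes are higher, at 5.97 and 5.79 against 4.89 and 4.66.

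For the genes most like the 7 members, values of log2(FPKM + 1) over the 4 libraries were centred on each gene's mean and compared with the mean profile of the members by Euclidean distance. With only 2 strains, this distance largely measures the size of the difference. Of 5171 other genes averaging 10 FPKM or more, the nearest were *Mycth_2112799*, *Mycth_33936*, *Mycth_2303045*, *Mycth_98003* and *Mycth_2303695*, at distances of 0.084 to 0.14, with no description at hand. *Mycth_2303045* was the most abundant of them, at 3619 and 3821 FPKM in MtWT and 677 and 669 FPKM in the libraries labelled ΔMtTrh-1. *Mycth_112089* was nearer to the mean profile than any of these, at 0.06, but as a member it is itself part of that mean. *Mycth_80312*, also part of it, was at 1.49 and had 288 other genes nearer.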

How the data were processed

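The authors deposited 1 FPKM value per gene and library for 4 libraries and 8716 genes. HISAT and Bowtie2 appear in the submitters' processing notes. Their versions, the quantifier, the build and the annotation are not given in the sources used. FPKM carry no read counts, so no counting interval is given.

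Strains were compared by limma 3.58.1 (R 4.3.3) on log2(FPKM + 1), with a variance trend on intensity. Adjustment was by Benjamini-Hochberg over 7525 genes that averaged 1 FPKM or more. All 7 members passed this filter. The scale understates changes of low genes. On simulated data for this comparison with 7525 genes, 100% of 100 genes changed 3-fold and 100% of 100 changed 6-fold were recovered. Noise was normal and drawn from the spread between libraries. The changed genes were taken only from those with higher levels in MtWT, so this recovery does not cover low genes.

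Members and lists were chosen with earlier results of these data known. Named were the members, the gene taken as deleted, 3 cellulase genes, described relatives, the 5 nearest profiles and flanking genes that were called. The endoglucanase genes *Mycth_111372* and *Mycth_109444* were added for comparison and were not run under the alternatives. Relatives were to be found by protein similarity. No protein table was used here, so descriptions from the study's supplement served. RefSeq assembly ASM22609v1 gave symbols and gene order only. Alternatives covered pseudocount, filter, scaling, variance model, thresholds, replicate block and each library left out. Plots were drawn with matplotlib 3.10.9.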

Additional observations from a re-analysis of the deposited data

How the results depend on the processing

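All 7 members were called lower under each alternative that kept all 4 libraries. Of these, the setting with no fold threshold used the same fit and could only add calls. The members, and the other named genes that were run, kept their direction under each of the 14 alternatives in which they were tested. Over single genes, 273 of 278 values kept the call too, and the exceptions were the flanking genes *Mycth_2301780* (1 value) and *Mycth_2305345* (4 values). Calls over all genes, 373 lower and 399 higher, became 181 and 194 with a pseudocount of 10 FPKM, 240 and 233 with limma's treat, and 2356 and 2570 with no fold threshold. The 10 FPKM pseudocount compresses low genes by construction, and the log2 fold change of *Mycth_92668* was −1.80 at its smallest. The log2 ratio of the 7-gene sum was −2.14 with median of ratios scaling. With each library left out it ranged from −2.13 to −2.09, and for the AA9 genes without *Mycth_112089* from −1.99 to −1.90. Same-numbered libraries did not deviate together (correlation −0.02 across genes). The replicate block called 7 members, and 373 genes lower and 400 higher in all. A library left alone in its strain is assumed to vary like the other strain. Both alternatives on protein similarity were not run. Having 2 libraries a strain and an unknown read depth limits the precision.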

Other observations

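The members did not adjoin one another in the RefSeq gene order. The closest pair of members was *Mycth_100518* and *Mycth_92668*, with 23 genes between them, and *Mycth_80312* had 31 genes between it and *cbdA*. Of 14 flanking genes, 9 were tested. Only *Mycth_2301780*, beside *Mycth_100518*, was called lower, and 0 were called higher by limma, while an unadjusted p under 0.05 was found for 3 lower and 3 higher ones, against 32.6% lower and 35.7% higher over all genes tested. *Mycth_2301780* was at 14.2 and 13.3 FPKM in MtWT and at 2.96 and 1.62 FPKM in those labelled ΔMtTrh-1, which gives a log2 fold change of −2.20 (adjusted p = 2.91e-06, limma). With a pseudocount of 10 FPKM it was at −0.95 and no longer called. The log2 fold change of *Mycth_100518* was −2.21, at far higher levels. Beside *Mycth_80312*, the gene with the largest fall, *Mycth_2305345* had 11.7 and 11.1 FPKM in the libraries labelled ΔMtTrh-1 against 5.47 and 5.01 FPKM, which gives a log2 fold change of 0.99 (adjusted p = 7.92e-06, limma), just short of the fold threshold. It passed at 1.02 without ΔMtTrh-1 replicate 2 and at 1.04 without MtWT replicate 1. Reads shared between a member and its neighbour were not tested.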
